A study of Saccharomyces cerevisiae with 4 samples.

Results

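Guanine was added to yeast cells treated with mycophenolic acid (MPA), and the transcripts of these cells were set against those of cells that received MPA alone. The cells were chosen by the sample given for each cell in the deposited metadata, which put 268 cells in the MPA + Guanine (MG) library and 85 in the MPA library, 353 of the 844 cells of the series. All cells were haploid BY4741 (MATa his3Δ1 leu2Δ0 met15Δ0 ura3Δ0), grown for 18 h in CSM minimal medium with 2% glucose. The MPA + Guanine medium held 10 µM MPA, 10 µM guanine and DMSO, and the MPA medium held 10 µM MPA and DMSO. The levels in the other libraries, DMSO (the vehicle) and Guanine (10 µM guanine, with no DMSO according to the Methods), are printed beside them and were not compared. Each condition had 1 library, so that library and condition cannot be told apart, no test between conditions was possible, and cells of 1 library are not replicates.

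MPA inhibits IMP dehydrogenase, the enzyme that commits IMP to guanine nucleotide synthesis. IMP dehydrogenase turns IMP into XMP, and GMP synthetase turns XMP into GMP, which is then phosphorylated to GDP and GTP. Free guanine enters the pathway past the inhibited step, because hypoxanthine-guanine phosphoribosyltransferase joins it directly to phosphoribosyl pyrophosphate. In yeast GTP is needed to make RNA, and rRNA and tRNA are most of what a growing cell transcribes. Ribosome assembly and translation also depend on GTP, through many GTPases.

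The droplet assay, yeastDrop-Seq, counts Unique Molecular Identifiers (UMIs), so that PCR copies of 1 captured mRNA count once. The MPA + Guanine library held 279806 UMIs and the MPA library 102788. A cell had a median of 957 UMIs and 573.5 genes in MG and of 1165 UMIs and 554 genes in MPA. Thinned to 400 UMIs a cell, the medians were 296 genes in 255 MPA + Guanine-treated cells and 267 in all 85 MPA-treated cells, and 13 MPA + Guanine-treated cells were shallower than this. No cell barcode was shared between libraries. Some genes used by MATa cells were detected in both libraries, MFA1 (the a-factor precursor) with 271 UMIs in MG and 72 in MPA and STE2 (the alpha-factor receptor) with 97 in MG and 28 in MPA, while the MATalpha gene SAG1 was listed at 0 in both. The other a-factor gene MFA2 was also listed at 0 in both, and AGA1, FUS1, FUS3, SST2 and ASG7, further genes of MATa cells and of mating, were at 0 in MPA. No gene was present in a library without reaching 2 UMIs in some cell there, so an entry of 0 can come from a filter, and a gene listed at 0 was given no fold. Listed at 0 were 2356 of the 4777 genes of the matrix in MPA and 872 in MPA + Guanine. In 16 MPA + Guanine-treated cells and 4 MPA-treated cells a single gene held more than 10% of the UMIs, most often YGR069W (9 cells of MG and 4 of MPA), and YNL143C did so in 5 MPA + Guanine-treated cells.

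For each library the UMIs of a gene were added up and scaled to CPM, the count this gene would have if the library held 1e+06 UMIs. Of the 4777 genes of the matrix, 1394 had UMIs in both libraries and at least 50 together, and for these the log2 ratio of MPA + Guanine over MPA was taken. Their median log2 ratio was 0.05, with quartiles at -0.48 and 0.56. At least 2-fold higher in MPA + Guanine were 150 genes, 10.8% of those compared, and at least 2-fold lower were 127, or 9.11%. At 1.5-fold, 328 genes were higher (23.5%) and 301 lower (21.6%). Every interval printed is an exact 95% interval that covers counting error only. The split of the calls depended on the scaling: with the ribosomal protein genes left out of the totals, 99 genes were at least 2-fold higher and 203 lower, the higher ones being 32.8% of the calls against 54.2% with all UMIs. That scaling moved the median by -0.22 on the log2 scale, so every log2 ratio between 0 and 0.22 has the opposite sign under it, and genes less than 0.22 past the 2-fold limit on the higher side, GCV3 and MPC2 among them, are no longer past it.

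**Figure D1:**
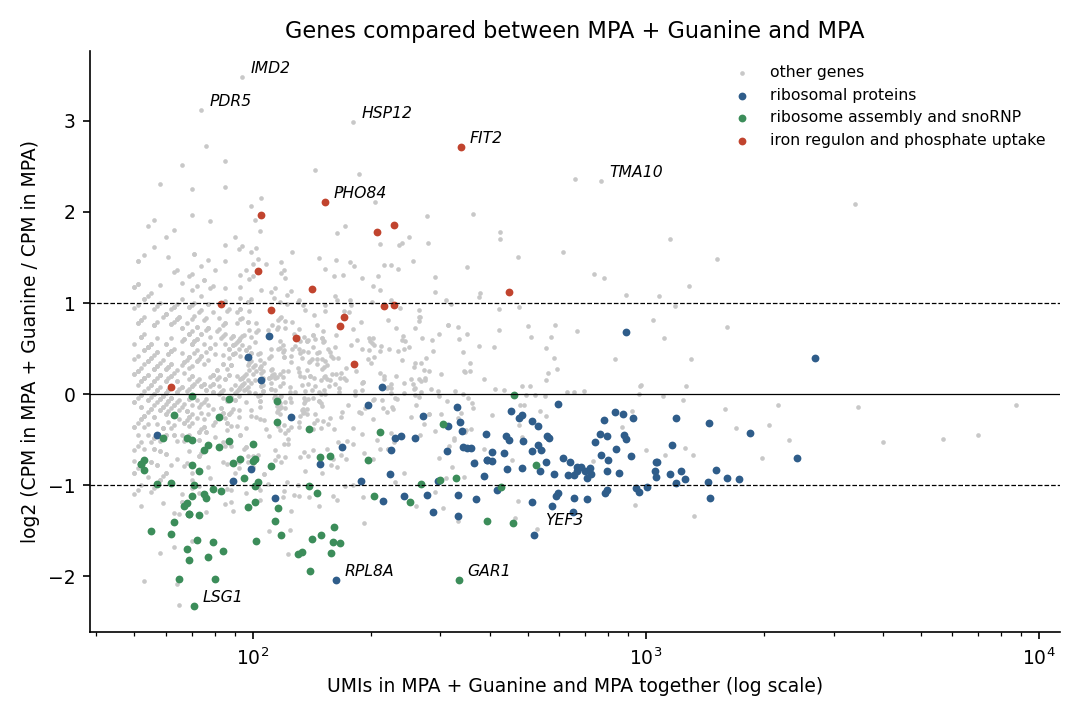
Log2 ratio of MPA + Guanine over MPA (vertical axis) against the summed UMIs of both libraries (horizontal axis, log scale) for the 1394 genes compared, 1 point a gene, with ribosomal protein genes in blue, ribosome assembly and snoRNP genes in green, iron and phosphate genes in red, and dashed lines at 2-fold. The median lies at 0.05, the blue and green points lie mostly below 0 and the red points above it, and IMD2 stands highest, at 3.48.

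The genes of GMP synthesis did not move as a group. Of 9 members, 6 were compared, with a median log2 ratio of -0.05, and 1 of them was at least 2-fold higher and 1 at least 2-fold lower, where 10.8% and 9.11% of all genes compared were. IMD2 (YHR216W, chromosome VIII, 554396 to 555967, plus strand, R64), which encodes an IMP dehydrogenase isoform and whose transcription is known to be induced when guanine nucleotides are short, stood at 325 CPM (262 to 399) in MPA + Guanine and 29.2 CPM (6.02 to 85.3) in MPA. These levels rest on 91 UMIs in 67 cells of MG and 3 UMIs in 2 cells of MPA, and IMD2 was listed at 0 in DMSO and in Guanine. The log2 ratio of IMD2 was 3.48 (1.89 to 5.78), or 11.1-fold higher. This order is the opposite of what that background and the labels of the libraries would give. The labels were used as deposited, and the cause was not tested. With cells thinned to 400 UMIs, IMD2 was seen in 32 of 255 MPA + Guanine-treated cells (12.5%) and in 0 of 85 MPA-treated cells, where a limit of 3 counts allows a share of up to 3.53% of cells with a UMI and the exact interval reaches 4.25%. In all cells unthinned these shares were 25.0% in MG and 2.35% in MPA. The IMD2 sequence has a match of 96.3% identity over 1576 bases on chromosome I (227742 to 229317). The RefSeq annotation used here has no gene there, and the annotation on which the authors counted UMIs was not checked. IMD2 also shares 89.1% with IMD3 over 1571 bases, so reads may be divided between these loci and the count of IMD2 is uncertain.

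The remaining genes around IMP dehydrogenase were closer to each other in the libraries. IMD3 (another isoform) had 275 CPM in MPA + Guanine and 175 CPM in MPA, with 141 CPM in DMSO and an entry of 0 in Guanine, and its log2 ratio of 0.65 (-0.10 to 1.48) had an interval that included 0. IMD4 (the remaining isoform, whose gene overlaps SNR54 on the same strand) had 418 CPM in MG and 496 CPM in MPA, with 276 CPM in DMSO and 152 CPM in Guanine, and a log2 ratio of -0.25 (-0.73 to 0.26). GUA1, the GMP synthetase, was the member that was lower, with 111 CPM in MPA + Guanine and 233 CPM in MPA, beside 257 CPM in DMSO and 254 CPM in Guanine. Its log2 ratio was -1.08 (-1.89 to -0.24), 2.11-fold lower, from 31 UMIs in MG and 24 in MPA, and it was -0.97 with the deepest 5% of the cells left out and -0.85 in subcluster MG.2. GUK1, the guanylate kinase, had 382 CPM in MG and 418 CPM in MPA and a log2 ratio of -0.13. The genes that salvage free bases had levels close to each other: XPT1 (xanthine phosphoribosyltransferase) had 139 CPM in MG and 136 CPM in MPA, and HPT1 (hypoxanthine-guanine phosphoribosyltransferase) had 122 CPM in MG and 136 CPM in MPA, but HPT1 and YNK1 (nucleoside diphosphate kinase, 125 CPM in MG and 117 CPM in MPA) had fewer than 50 UMIs and were not compared.

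**Figure D2:**
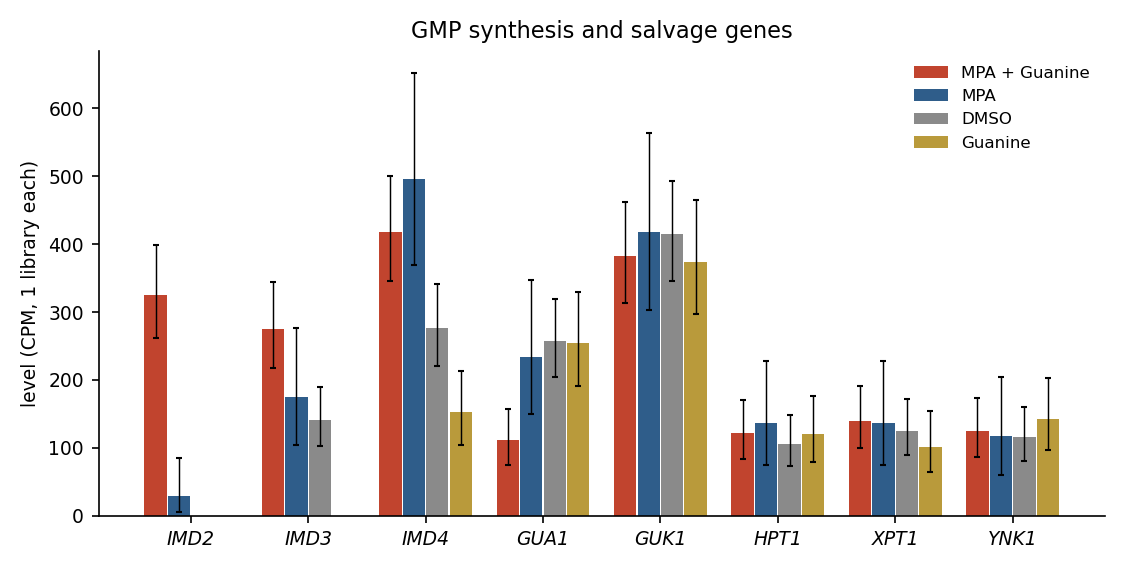
Level in CPM (vertical axis, bars from 0) of each GMP synthesis gene with UMIs in the MPA + Guanine, MPA, DMSO and Guanine libraries, with exact 95% counting intervals as lines and no bar for a gene listed at 0. IMD2 stands at 325 CPM in MPA + Guanine and 29.2 CPM in MPA with intervals that do not overlap, and GUA1 stands at 111 CPM in MG and 233 CPM in MPA.

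The neighbouring pathways differed in pattern. Of the 24 genes for IMP and AMP synthesis, 7 were compared, with a median log2 ratio of -0.19 and none past 2-fold. Of the 22 in the matrix 9 were listed at 0 in MPA, as were 2356 of all 4777 genes. One-carbon metabolism, which supplies formyl groups to the purine ring, had a median of 0.45 over 6 genes, with 2 higher and 0 lower by 2-fold. Among all genes compared, 10.8% were higher and 9.11% lower by 2-fold. SHM2, the cytosolic serine hydroxymethyltransferase, had 315 CPM in MPA + Guanine and 107 CPM in MPA, beside 180 CPM in DMSO and 258 CPM in Guanine, a log2 ratio of 1.56. GCV3, the H protein of the glycine cleavage system, had 350 CPM in MG and 156 CPM in MPA, a log2 ratio of 1.17. Pyrimidine synthesis had no settled direction. Of 5 genes 2 were lower by 2-fold, and the median of -0.57 was 0.064 over 4 genes with the deepest 5% of the cells left out and 0.56 over 2 genes in MG.2. URA7, a CTP synthase, had 75.1 CPM in MPA + Guanine and 311 CPM in MPA (log2 ratio -2.05), with 157 CPM in DMSO and 171 CPM in Guanine. URA1, the dihydroorotate dehydrogenase, had 586 CPM in MG and 1236 CPM in MPA (log2 ratio -1.08), but only -0.28 in the cells of MG.2.

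Genes of ribosome assembly were lower in MPA + Guanine as a group. The paper gives a longer doubling time for the MPA culture than for the MPA + Guanine culture. The part of growth in the values that follow was not tested. All 50 of the large subunit assembly genes compared, of 75 on the list, had a log2 ratio below 0, with a median of -1.09, and 28 of them were at least 2-fold lower and 0 higher, where 9.11% of all genes were lower. The whole list summed to 14639 CPM in MPA + Guanine and 30432 CPM in MPA. In DMSO it held 18837 CPM and in Guanine 13060 CPM. The 50 genes compared summed to 13324 CPM in MPA + Guanine and 28233 CPM in MPA, a log2 ratio of -1.08 (-1.15 to -1.01). The small subunit processome, which cleaves the rRNA precursor into the small subunit's rRNA, had 10 of 25 genes lower and 0 higher by 2-fold. Its median was -0.96, and the 25 genes summed to 5297 CPM in MPA + Guanine and 9456 CPM in MPA. Proteins of the box C/D and H/ACA snoRNPs, which modify rRNA, had 8 of 12 genes lower and 0 higher, with a median of -1.11. These 12 genes summed to 4525 CPM in MG and 10604 CPM in MPA. For RNA polymerase I, which makes the rRNA, 2 of 5 genes were lower and the median was -0.91, and RPA34, a subunit of the enzyme, had 275 CPM in MG and 603 CPM in MPA (log2 ratio -1.13, and -0.59 in MG.2). The median over RNA polymerase III genes was -0.34, with 1 of 6 higher and 0 lower, where 10.8% of all genes compared were higher.

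The genes at the low end of the whole comparison, 12 by the upper bound of the counting interval, were mostly of this kind. GAR1, an H/ACA snoRNP protein, had 475 CPM in MPA + Guanine and 1955 CPM in MPA, beside 746 CPM in DMSO and 498 CPM in Guanine, and its log2 ratio was -2.04 (-2.37 to -1.72), 4.11-fold lower. LSG1, a GTPase that releases Nmd3 from the large subunit in the cytoplasm, had 89.3 CPM in MG and 448 CPM in MPA (log2 ratio -2.32). RRB1, a chaperone of the ribosomal protein Rpl3, had 82.2 CPM in MG and 409 CPM in MPA (log2 ratio -2.31). For each of these genes the MPA library was the highest of all libraries and MPA + Guanine stood below DMSO. MRT4, an assembly factor related to the stalk protein P0, had 207 CPM in MG and 798 CPM in MPA (-1.94), and RRP5, needed for precursor cleavage in both subunits, had 114 CPM in MG and 467 CPM in MPA (-2.03). NOP4, NUG1 (a GTPase) and DBP3 (a DEAD-box helicase) all act in making the large subunit. NOP4 had 92.9 CPM in MPA + Guanine and 379 CPM in MPA (log2 ratio -2.03), NUG1 had 254 CPM in MG and 846 CPM in MPA (-1.74), and DBP3 had 207 CPM in MG and 700 CPM in MPA (-1.76). The others of the 12 were TRM8 (tRNA methyltransferase), YEF3 (elongation factor), RPL8A and RPL31B. Of the processome, UTP14 had 239 CPM in MG and 720 CPM in MPA (log2 ratio -1.59) and KRR1 had 286 CPM in MG and 574 CPM in MPA (-1.01, and -0.93 in MG.2). Among the snoRNP list, PXR1, which acts in rRNA and snoRNA maturation, had 268 CPM in MG and 827 CPM in MPA (-1.63), and SNU13, a component of box C/D snoRNPs and of the spliceosome, had 257 CPM in MG and 749 CPM in MPA (-1.54, and -0.85 in MG.2).

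The promoters of these genes often held 2 known motifs. The PAC core (GATGAG) and the RRPE core (AAAATTTT) are known from promoters of yeast ribosome biogenesis genes, and both were searched on both strands in the 300 bases before each start codon. PAC was in 19.1% of all 6001 promoters, in 22.2% of the 1377 promoters of genes compared, in 68 of 127 (53.5%) of those at least 2-fold lower and in 14.1% of those at least 2-fold higher. RRPE was in 9.42% of all promoters, 15.8% of those compared, 65 of 127 (51.2%) of the lower and 2.11% of the higher. Of the large subunit assembly genes 45 of 50 held PAC and 41 of 50 held RRPE, and 23 and 19 of 25 processome genes did. These lists are of ribosome biogenesis genes, so their shares say nothing about the difference between the libraries. The genes at least 2-fold lower include 28 of the large subunit assembly list and 10 of the processome list, and the 12 lowest are mostly of this kind. Their shares are therefore not independent of the lists. Of the 12 lowest genes 9 held PAC and 8 held RRPE. A match is a description of the letters and does not show that a factor binds. The stretches of 200 bases from 300 to 101 before the start codon (RefSeq, R64) are shown for 4 of the lowest genes and for GUA1, the GMP synthesis gene that was lower, to show how closely the motifs stand together; capitals mark PAC and RRPE in either orientation. They are GAR1 at chrVIII:283399-283598 (minus strand), MRT4 at chrXI:425942-426141 (plus), DBP3 at chrVII:361960-362159 (minus), RRP5 at chrXIII:731224-731423 (minus) and GUA1 at chrXIII:701490-701689 (plus).
GAR1: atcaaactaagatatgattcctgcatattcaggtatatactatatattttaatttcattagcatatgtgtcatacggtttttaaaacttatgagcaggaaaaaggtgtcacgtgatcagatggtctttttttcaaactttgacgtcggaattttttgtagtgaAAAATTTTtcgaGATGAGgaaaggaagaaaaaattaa
MRT4: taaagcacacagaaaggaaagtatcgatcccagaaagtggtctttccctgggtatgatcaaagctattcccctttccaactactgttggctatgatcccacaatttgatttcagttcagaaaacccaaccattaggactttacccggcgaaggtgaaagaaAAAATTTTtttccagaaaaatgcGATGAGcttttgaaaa
DBP3: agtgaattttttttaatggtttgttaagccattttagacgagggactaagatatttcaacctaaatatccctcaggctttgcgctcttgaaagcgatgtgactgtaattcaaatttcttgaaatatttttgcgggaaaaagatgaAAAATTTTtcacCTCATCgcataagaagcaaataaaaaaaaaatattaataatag
RRP5: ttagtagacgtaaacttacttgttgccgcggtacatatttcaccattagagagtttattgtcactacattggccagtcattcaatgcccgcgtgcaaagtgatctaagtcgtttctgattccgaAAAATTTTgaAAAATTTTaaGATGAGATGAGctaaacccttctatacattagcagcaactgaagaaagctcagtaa
GUA1: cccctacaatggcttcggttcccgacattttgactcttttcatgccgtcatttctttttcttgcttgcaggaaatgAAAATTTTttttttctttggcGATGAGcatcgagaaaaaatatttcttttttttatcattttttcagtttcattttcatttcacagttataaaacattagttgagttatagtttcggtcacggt

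In GAR1, DBP3 and MRT4 an RRPE core lies upstream of the PAC core, starting at -137 and -125 in GAR1, at -155 and -143 in DBP3 and at -139 and -116 in MRT4. RRP5 holds each core in 2 copies, and its PAC cores, at -156 and -151, share a base. GUA1 has the same order with RRPE at -224 and PAC at -203. Of the 6 GMP synthesis genes compared, 4 held PAC and 1, GUA1, held RRPE. HPT1, of the same list but with too few UMIs to be compared, held both in this order, with RRPE at -240 and PAC at -202. Its levels in MPA + Guanine and MPA were close to each other.

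**Figure D3:**
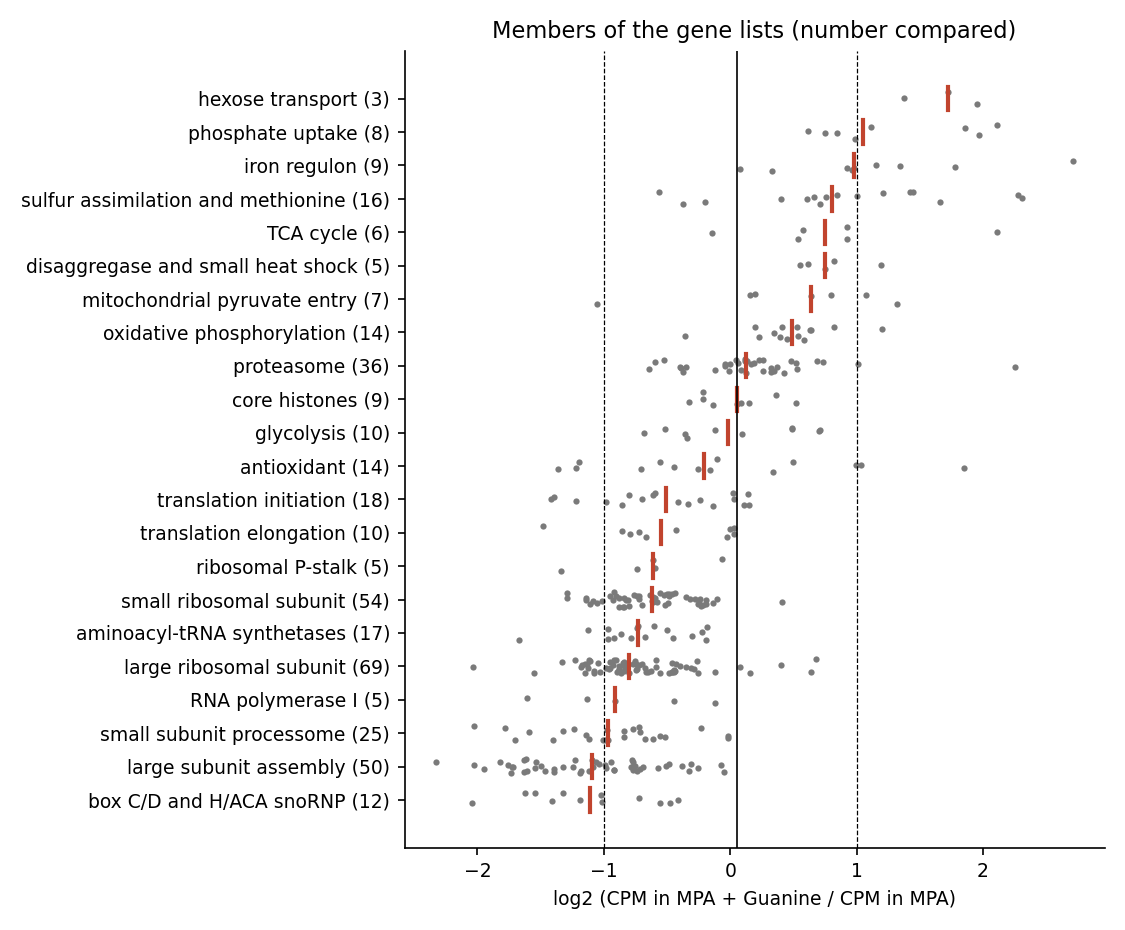
Log2 ratios of MPA + Guanine over MPA for the genes compared in each list, 1 point a gene, with the median of the list as a red mark, the median of all genes compared as a solid line and the 2-fold limits dashed. Ribosome assembly lists have medians between -0.91 and -1.11, and the iron, phosphate and hexose transport lists have medians between 0.98 and 1.73.

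Ribosomal protein genes were lower too. They took 18.9% (18.7 to 19.0) of all UMIs in MPA + Guanine and 30.5% (30.2 to 30.8) in MPA, beside 33.2% in DMSO and 36.2% in Guanine. Of 54 small subunit genes compared, 53 had a log2 ratio below 0, with a median of -0.62 and 8 lower and 0 higher by 2-fold. Of 69 large subunit genes, 64 were below 0, with a median of -0.80 and 16 lower and 0 higher. Among all genes compared, 9.11% were at least 2-fold lower and 10.8% higher. RPL31B had 893 CPM in MPA + Guanine and 2617 CPM in MPA, beside 2227 CPM in DMSO and 1910 CPM in Guanine, a log2 ratio of -1.55 (-1.80 to -1.30). RPL8A had 232 CPM in MG and 953 CPM in MPA (log2 ratio -2.04), but it has a near-identical copy, RPL8B, so reads may be divided between them. RPL26A had 618 CPM in MG and 1557 CPM in MPA (-1.33, and -0.78 in MG.2). Some genes stood on the other side: RPL41B had 2584 CPM in MPA + Guanine and 1615 CPM in MPA, with 4039 CPM in DMSO and 5148 CPM in Guanine (log2 ratio 0.68), and RPL41A had 7523 CPM in MG and 5701 CPM in MPA (0.40). The acidic stalk proteins, which recruit translation factors, had a median of -0.61 over 5 genes, and RPP2A had 2452 CPM in MG and 6197 CPM in MPA (-1.34, and -0.63 in MG.2).

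The translation machinery outside the ribosome was lower on the median of each list. Of 17 aminoacyl-tRNA synthetases 2 were lower and 0 higher by 2-fold, 11 were lower by 1.5-fold against 21.6% of all genes, and the median was -0.73. The 17 genes compared summed to 7116 CPM in MPA + Guanine and 11636 CPM in MPA. Their sums were 7764 CPM in DMSO and 6588 CPM in Guanine. VAS1, the valyl-tRNA synthetase, had 379 CPM in MG and 827 CPM in MPA (log2 ratio -1.13). Of 11 tRNA modification genes 4 were lower and 0 higher by 2-fold, where 9.11% of all genes were lower, with a median of -0.74. TRM8, part of the enzyme that makes 7-methylguanosine in tRNA, had 89.3 CPM in MG and 379 CPM in MPA (-2.09), and TRM1, a dimethylguanosine tRNA methyltransferase, had 218 CPM in MG and 613 CPM in MPA (-1.49). Initiation factors had 3 of 18 lower and 0 higher by 2-fold, beside the same 9.11%, with a median of -0.51. TIF4631, an eIF4G, had 347 CPM in MG and 924 CPM in MPA (log2 ratio -1.41), TIF3, the eIF4B, had 604 CPM in MG and 1586 CPM in MPA (-1.39), and GCD11, the gamma subunit of the GTPase eIF2, had 500 CPM in MG and 1167 CPM in MPA (-1.22). YEF3, the fungal elongation factor 3, was the single elongation gene of 10 lower by 2-fold, with 933 CPM in MPA + Guanine, 2598 CPM in MPA, 1353 CPM in DMSO and 1139 CPM in Guanine (-1.48, -1.73 to -1.23). ZUO1, a chaperone that sits on the ribosome, had 926 CPM in MG and 2082 CPM in MPA (-1.17).

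Within the MPA + Guanine library the authors' clustering gives the subclusters MG.1 (166 cells), MG.2 (77 cells) and MG.3 (25 cells), which were found from the same counts and are used as a description. Their medians were 1097.5, 807 and 666 UMIs a cell, and 15 of the 16 cells dominated by a single gene were in MG.3. Ribosomal protein genes took a median of 15.6% of a cell's UMIs in MG.1, 26.9% in MG.2 and 5.91% in MG.3, against 30.0% in MPA-treated cells. Large subunit assembly genes took 1.48% in MG.1, 1.31% in MG.2 and 0.849% in MG.3, against 2.88% in MPA-treated cells, and 255 of the 268 MPA + Guanine-treated cells lay below the MPA median. For ribosomal protein genes 239 of 268 did. Set against MPA alone, MG.1 and MG.2 both had low medians for large subunit assembly (-1.05 and -1.35), but MG.2 was close to MPA for ribosomal protein genes of the small subunit (-0.89 in MG.1 and -0.11 in MG.2). The processome list had a median of -1.39 over 7 genes in MG.2 and -0.73 over 20 genes in MG.1, and the proteasome list had -0.48 over 28 genes in MG.2 and 0.31 over 36 genes in MG.1. Depth differs between the subclusters, and its part in these values was not tested.

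**Figure D4:**
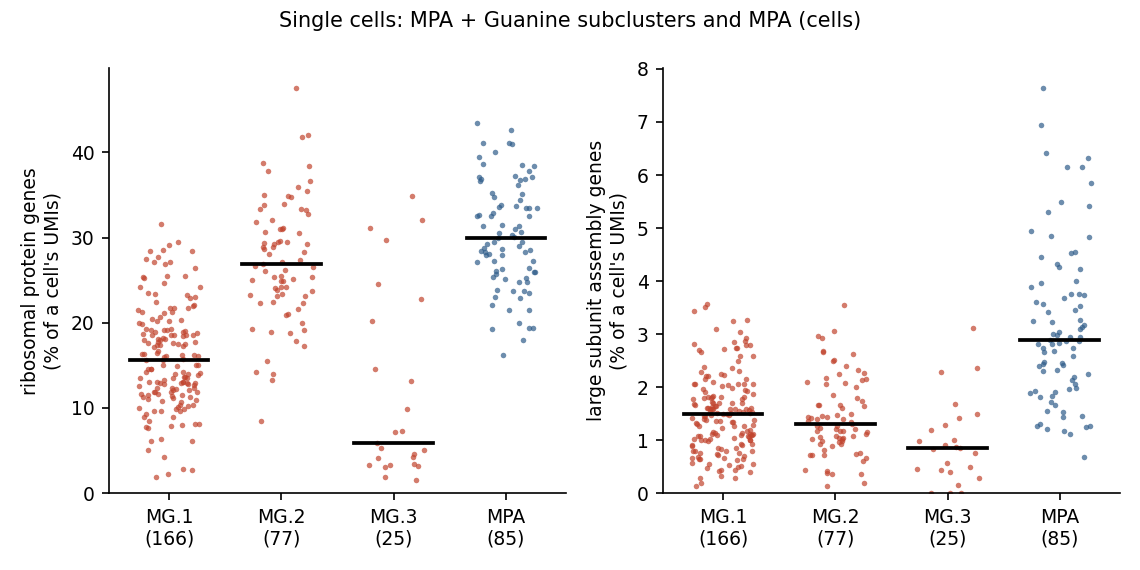
Share of each cell's UMIs, in percent, taken by ribosomal protein genes (left) and large subunit assembly genes (right), for cells of MG.1, MG.2, MG.3 and MPA, 1 point a cell with the median as a line. Median shares of ribosomal protein genes are 15.6%, 26.9% and 5.91% in MG.1, MG.2 and MG.3 and 30.0% in MPA-treated cells, and those of large subunit assembly genes are 1.48%, 1.31% and 0.849% against 2.88%.

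The genes at the high end of the comparison, 12 by the lower bound of the interval, included genes of nutrient uptake, acetate metabolism and stress. FIT2, a cell wall mannoprotein that helps to retain siderophore-bound iron, had 1147 CPM in MPA + Guanine and 175 CPM in MPA, beside 443 CPM in DMSO and 729 CPM in Guanine, and its log2 ratio was 2.71 (2.03 to 3.48), or 6.55-fold. TMA10, which associates with ribosomes, had 2552 CPM in MG and 506 CPM in MPA (log2 ratio 2.33), with 514 CPM in DMSO and 683 CPM in Guanine. ALD4, the mitochondrial acetaldehyde dehydrogenase, had 2198 CPM in MG and 428 CPM in MPA (2.36), with 842 CPM in DMSO and 678 CPM in Guanine. All of FIT2, TMA10 and ALD4 were highest in MPA + Guanine among the libraries. FIT2 and ALD4 were lowest in MPA, while the MPA level of TMA10 was close to that in DMSO. UBI4, the polyubiquitin gene, had 558 CPM in MG and 117 CPM in MPA (2.26), PST2, a flavodoxin-like protein, had 1190 CPM in MG and 302 CPM in MPA (1.98), and CIT2, the peroxisomal citrate synthase, had 672 CPM in MG and 156 CPM in MPA (2.11). HXT3, a low-affinity glucose transporter, had 904 CPM in MPA + Guanine and 233 CPM in MPA, beside 514 CPM in DMSO and 955 CPM in Guanine (1.95). OSI1 had 1369 CPM in MG and 399 CPM in MPA (log2 ratio 1.78), HBN1, a nitroreductase-like protein, had 1365 CPM in MG and 418 CPM in MPA (1.71), and HOR7, known to respond to hyperosmolarity, had 4775 CPM in MG and 1703 CPM in MPA (1.49). ALD6, the cytosolic acetaldehyde dehydrogenase, had 3703 CPM in MG and 1138 CPM in MPA (1.70), but 0.49 in MG.2. YNL143C, with 11158 CPM in MG and 2636 CPM in MPA (2.08), is 1 of the genes that dominated single cells, and its log2 ratio was 0.98 without such cells, 0.92 without MG.3 and -1.27 in MG.2. Of these 12 genes, 6 held the stress response element (AGGGG, both strands) in the 300 bases before the start codon, as did 22.2% of all promoters, 37.3% of the genes at least 2-fold higher and 14.2% of those lower.

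**Figure D5:**
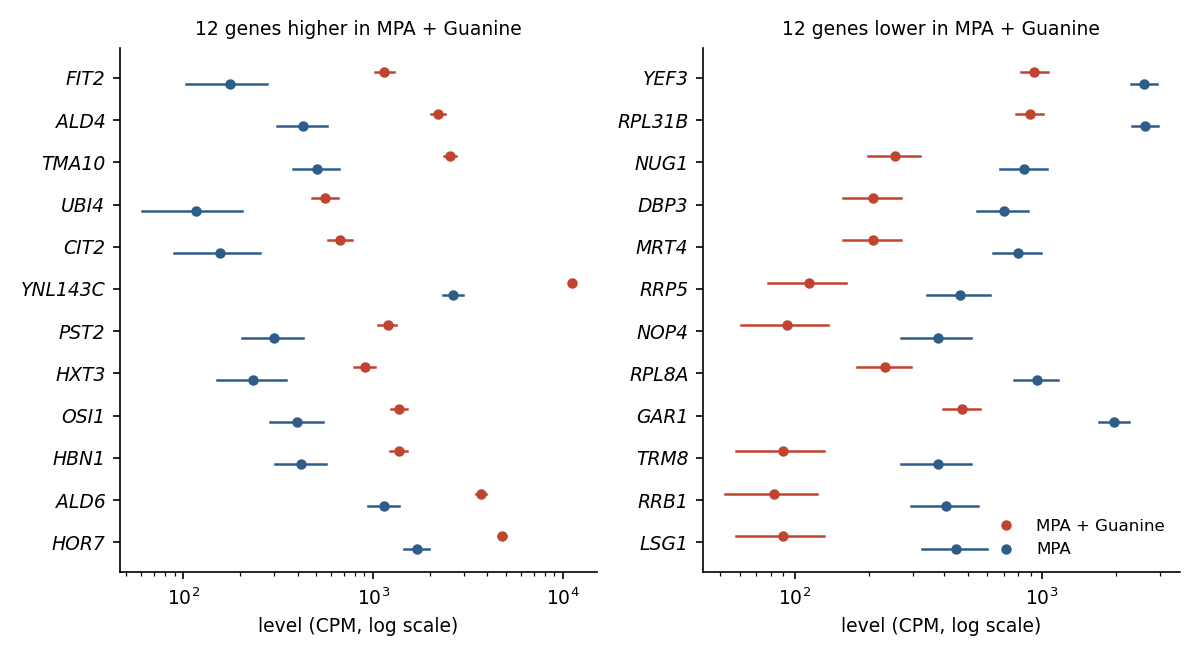
Level in CPM (log scale) of the 12 genes with the highest lower bounds (left) and the 12 with the lowest upper bounds (right) of the log2 ratio, in the MPA + Guanine (red) and MPA (blue) libraries, with exact 95% counting intervals as lines. FIT2 has 1147 CPM in MPA + Guanine and 175 CPM in MPA, GAR1 has 475 CPM in MG and 1955 CPM in MPA, and the intervals of the libraries do not overlap for any of these genes, which were chosen by their intervals.

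Iron uptake genes were higher as a group. From the iron regulon, which the transcription factor Aft1 is known to switch on when iron is short, 9 genes were compared. At least 2-fold higher were 4 and lower 0, where 10.8% and 9.11% of all genes compared were. By 1.5-fold 7 were higher against 23.5% of all genes, and the median log2 ratio was 0.98. The list summed to 5650 CPM in MPA + Guanine, 2238 CPM in MPA, 2992 CPM in DMSO and 5642 CPM in Guanine, so that the MPA library was the lowest of the series. The 9 genes compared summed to 4903 CPM in MPA + Guanine and 2101 CPM in MPA. HMX1, a heme oxygenase, had 668 CPM in MG and 195 CPM in MPA (log2 ratio 1.78), FET3, the multicopper ferroxidase, had 432 CPM in MG and 195 CPM in MPA (1.15), and ENB1, a transporter of enterobactin-bound iron, had 322 CPM in MG and 126 CPM in MPA (1.35, but 0.18 in MG.2). The list is of genes known to be under Aft1, so sites for Aft1 in it say nothing about the difference between the libraries. The Aft1 core (TGCACCC, both strands), added to the search after the values were known, was in 7 of 9 promoters of the genes compared and in 1.33% of all. The same window of FIT2, chrXV:1059231-1059430 (plus strand, R64), is shown because FIT2 was the highest of the genes ranked; capitals mark this core in either orientation and AGGGG, whose reverse complement directly follows the second Aft1 core.
FIT2: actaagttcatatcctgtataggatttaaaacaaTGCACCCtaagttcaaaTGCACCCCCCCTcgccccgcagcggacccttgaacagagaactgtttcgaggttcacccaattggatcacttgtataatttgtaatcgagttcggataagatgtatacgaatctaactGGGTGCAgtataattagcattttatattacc

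The Aft1 cores of FIT2 start at -266, -249 and -131 from the start codon. FIT3, another mannoprotein of this pathway, had 443 CPM in MPA + Guanine from 124 UMIs in 45 cells, with 48.2 CPM in DMSO and 217 CPM in Guanine, and was listed at 0 in MPA.

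Phosphate, hexose and amino-acid genes followed. Of 18 phosphate genes, which Pho4 is known to switch on when phosphate is short, 8 were compared, with a median of 1.05. By 2-fold 4 of the 8 were higher and 0 lower, where 10.8% and 9.11% of all genes compared were. Of the 17 in the matrix a further 9 were listed at 0 in MPA, as were 2356 of all 4777 genes. The list summed to 5743 CPM in MPA + Guanine, 1985 CPM in MPA, 4441 CPM in DMSO and 4756 CPM in Guanine, and the 8 genes compared to 4578 CPM in MPA + Guanine and 1985 CPM in MPA. PHO84, the high-affinity phosphate transporter, had 504 CPM in MG and 117 CPM in MPA (log2 ratio 2.11), with 466 CPM in DMSO and 752 CPM in Guanine, and it overlaps a noncoding gene on the opposite strand. PHO89, a sodium-phosphate cotransporter, had 343 CPM in MG and 87.6 CPM in MPA (1.97), and SPL2, which downregulates low-affinity phosphate transport, had 740 CPM in MG and 204 CPM in MPA (1.86). The 3 hexose transporters compared were all at least 2-fold higher, HXT2 with 804 CPM in MG and 243 CPM in MPA (1.73) and HXT1 with 479 CPM in MG and 185 CPM in MPA (1.37) beside HXT3. Of the 10 genes of this list in the matrix, 7 were at 0 in MPA. Arginine synthesis summed to 1751 CPM in MPA + Guanine, 360 CPM in MPA, 1327 CPM in DMSO and 4576 CPM in Guanine. Of its 8 genes in the matrix 5 were listed at 0 in MPA. The 3 genes compared summed to 1133 CPM in MPA + Guanine, 360 CPM in MPA, 726 CPM in DMSO and 3151 CPM in Guanine. ARG1, argininosuccinate synthetase, had 622 CPM in MG and 117 CPM in MPA (log2 ratio 2.41), and was higher still in Guanine, with 2219 CPM.

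Of 16 genes for sulfur assimilation and methionine, 7 were at least 2-fold higher and 0 lower, where 10.8% and 9.11% of all genes compared were. The median was 0.80. The list's share of a cell's UMIs had a median of 0.957% in 208 MPA + Guanine-treated cells and 0.485% in the other 60, against 0.532% in MPA-treated cells. These 60 are the cells of MPA + Guanine in cluster 3 of the authors' SC3 clustering, which was found from the same counts, so that the values are a description. According to the paper nearly all MPA-treated cells fall in this cluster. The likeness to MPA did not hold for every list. In the 60 cells the median was 15.3% for ribosomal protein genes (30.0% in MPA) and 0.811% for the iron regulon (0.176% in MPA). For glycolysis it was 4.82% (5.03% in MPA). MET6, the methionine synthase, had 768 CPM in MPA + Guanine and 243 CPM in MPA (log2 ratio 1.66), MET14, the adenylylsulfate kinase, had 704 CPM in MG and 263 CPM in MPA (1.42), and MET16, the PAPS reductase, had 558 CPM in MG and 204 CPM in MPA (1.45). SAH1, S-adenosylhomocysteine hydrolase, was lower, with 729 CPM in MG and 1080 CPM in MPA (-0.57). The E-box CACGTG, read by both Cbf1 and Pho4, was in 8 of these 16 promoters and in 4 of the 8 phosphate promoters, against 3.57% of all. The phosphate list is of genes known to be under Pho4, so its share says nothing about the difference between the libraries. Other amino-acid lists stood apart: the median was -0.37 over 7 branched-chain genes, of which BAT1, the mitochondrial aminotransferase, had 254 CPM in MG and 545 CPM in MPA (-1.10). It was -0.09 over 12 genes for glutamate, asparagine and serine, where GLN1, the glutamine synthetase, had 186 CPM in MG and 438 CPM in MPA (-1.24).

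Carbon metabolism beyond the plasma membrane was mixed. Glycolysis had a median of -0.02 over 10 genes, with 0 genes past 2-fold in either direction. Fermentation and acetate genes had a median of 0.05, which was -0.17 with ribosomal protein genes left out of the totals. By 2-fold 3 of 9 were higher, ALD4 and ALD6 among them, against 10.8% of all genes compared. Genes for pyruvate entry into mitochondria had a median of 0.64 over 7 genes. MPC2 and MPC3, subunits of the mitochondrial pyruvate carrier, had 3281 CPM in MG and 1557 CPM in MPA (log2 ratio 1.08) and 2302 CPM in MG and 924 CPM in MPA (1.32, and 0.58 in MG.2), while PYC1, the pyruvate carboxylase, had 243 CPM in MG and 506 CPM in MPA (-1.06). Of 14 oxidative phosphorylation genes 1 was higher and 0 lower by 2-fold, with a median of 0.49 that was -0.29 over the 4 genes compared in MG.2. The TCA cycle list, which is wider than the cycle itself, had a median of 0.75 over 6 genes, with 1 higher and 0 lower by 2-fold. The higher gene was CIT2 (2.11), the peroxisomal citrate synthase, which is not an enzyme of the mitochondrial cycle. IDP1, the mitochondrial NADP-dependent isocitrate dehydrogenase, was also on the list, with 793 CPM in MG and 418 CPM in MPA (0.92).

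Chaperones, stress and redox genes were split. Of 4 general stress genes compared, 2 were at least 2-fold higher, where 10.8% of all genes compared were. Of the 17 genes of this list in the matrix, 12 were at 0 in MPA, as were 2356 of all 4777 genes. HSP12, a membrane-associated stress protein, had 615 CPM in MPA + Guanine, from 172 UMIs in 47 cells, and 77.8 CPM in MPA, from 8 UMIs in 6 cells, beside 38.6 CPM in DMSO and 106 CPM in Guanine, a log2 ratio of 2.98 (1.97 to 4.22). Cytosolic Hsp70 and Hsp110 genes had a median of 0.17 over 8 genes (-0.05 without ribosomal protein genes in the totals), with 2 higher and 0 lower by 2-fold. SSA4, the stress-inducible Hsp70, had 754 CPM in MG and 243 CPM in MPA (log2 ratio 1.63), with 64.3 CPM in DMSO and 23.1 CPM in Guanine. SSA1, which has a near-identical copy in SSA2, had 733 CPM in MG and 282 CPM in MPA (1.38). The Hsp90 list had a median of 0.07 over 10 genes, which was -0.15 without ribosomal protein genes in the totals, and HSP82, which shares sequence with HSC82, had 3631 CPM in MG and 2773 CPM in MPA (0.39). HSP42, a small heat shock protein, had 1469 CPM in MPA + Guanine and 876 CPM in MPA (0.75), against 222 CPM in DMSO and 111 CPM in Guanine, so both libraries with MPA were above both without it. BTN2, a sorting factor for misfolded proteins, had the same order, with 3088 CPM in MG and 1751 CPM in MPA (0.82), and with 964 CPM in DMSO and 208 CPM in Guanine. The 5 disaggregase and small heat shock genes compared summed to 5961 CPM in MPA + Guanine and 3415 CPM in MPA. Their sums were 1822 CPM in DMSO and 659.7 CPM in Guanine, and 1 of 5 was higher and 0 lower by 2-fold. CCT3, a subunit of the TRiC chaperonin that folds actin and tubulin, was lower, with 236 CPM in MG and 516 CPM in MPA (-1.13, and -0.94 in MG.1).

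Antioxidant genes had members on both sides, 2 of 14 higher and 3 lower by 2-fold, with a median of -0.21. Among all genes compared, 10.8% were higher and 9.11% lower by 2-fold. TRR1, the cytosolic thioredoxin reductase, had 851 CPM in MPA + Guanine and 2189 CPM in MPA, beside 945 CPM in DMSO and 996 CPM in Guanine (log2 ratio -1.36, and -0.71 in MG.2). TSA1, a peroxiredoxin, had 1808 CPM in MG and 4203 CPM in MPA (-1.22, and -0.66 in MG.2), and SOD1, the copper-zinc superoxide dismutase, had 4414 CPM in MG and 7180 CPM in MPA (-0.70). PRX1, the mitochondrial peroxiredoxin, stood higher with 175 CPM in MG and 48.6 CPM in MPA (1.85), but its MPA level rests on few UMIs. ZWF1, glucose-6-phosphate dehydrogenase, had 679 CPM in MG and 331 CPM in MPA (1.04, but -0.44 in MG.2). The proteasome list was near the middle of all genes, with 36 of 37 compared, a median of 0.13 (-0.10 without ribosomal protein genes in the totals) and 2 higher and 0 lower by 2-fold. These were UBI4 and RPN4, the transcription factor of proteasome genes, which had 354 CPM in MG and 175 CPM in MPA (1.01, but -1.02 in MG.2), and neither encodes a proteasome subunit. The Rpn4 site (GGTGGCAAA) was in 28 of the 36 promoters of the proteasome list and in 1.22% of all. Proteasome genes are known to be under RPN4, so this share says nothing about the difference between the libraries. Core histone genes had a median of 0.05 over 9 genes (-0.17 with that scaling) and none past 1.5-fold in either direction.

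Of 1475 genes with at least 50 UMIs in both libraries together, 0 were listed at 0 in MPA + Guanine and 81 in MPA, and 7 of the 81 had at least 100 UMIs. The MPA library was the smaller, and the filter's part in these entries was not tested. PNC1, the nicotinamidase, led with 465 CPM in MPA + Guanine from 130 UMIs in 82 cells, beside 202 CPM in DMSO and 166 CPM in Guanine. BDH1, a butanediol dehydrogenase, had 404 CPM, and PHO12 and PHO5, acid phosphatases, had 393 CPM from 110 UMIs in 68 cells and 279 CPM from 78 UMIs in 40 cells. The purine genes ADE3, the C1-tetrahydrofolate synthase, with 279 CPM, and ADE12, the adenylosuccinate synthase, were among them. Trehalose and glycogen genes had no member compared. Of the 10 in the matrix 9 were listed at 0 in MPA, as were 2356 of all 4777 genes. The list summed to 958 CPM in MPA + Guanine, 447 CPM in DMSO and 272 CPM in Guanine. Its 48.6 CPM in MPA came from 1 gene, so no fold was given.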

How the data were processed

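The authors trimmed the reads with Trimmomatic, used STAR for the alignment (R64-1-1) and UMI-tools for the UMI counts, and filtered the cells on how many UMIs and genes they had with scater. They deposited UMI counts without normalization as a single matrix. The deposited principal component and UMAP scores and the authors' other cell names and cluster labels were not used, apart from each cell's sample, subcluster and SC3 cluster. No cell was removed as a doublet here.

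UMIs were summed per library (279806 in MPA + Guanine, 102788 in MPA), scaled to CPM, and compared without a pseudocount for genes with UMIs in both libraries and at least 50 together. The 95% intervals are exact: Poisson for levels, binomial (Clopper-Pearson) for shares and, conditional on the sum, for ratios. With 1 library per condition no test was made. The text names the genes of the GMP synthesis list, the 12 genes with the highest lower bound and the 12 with the lowest upper bound of the interval among genes with UMIs in at least 10 cells of each library, up to 3 members per described list and direction with at least 100 UMIs, and genes that held over 10% of a cell's UMIs; genes listed at 0 in MPA and the list members AGA2, FET3, GLN1, PDR5, PRX1, SHM2 and URA7 lie outside this rule and were added after their values were seen. The members, the lists and the comparison were chosen with earlier results of these data known, and the Aft1 motif was added after the values were seen.

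The names of 4615 of 4777 genes (96.6%) matched RefSeq, which gave positions and promoters. The alternatives were TMM factors, CPM averaged over cells, totals that leave out ribosomal protein genes, other sets of cells, other minimum counts and a 1.5-fold limit. Near-identical copies had at least 90% identity (blastn 2.17.0+). Only the log2 ratios and their intervals were tested on simulated counts. Tools were python 3.11.15 with biopython 1.88, matplotlib 3.10.9, pandas 2.3.3, scipy 1.17.1 and numpy 2.4.6, and R 4.3.3 with edgeR 4.0.16, used only for the TMM factors.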

Additional observations from a re-analysis of the deposited data

How the results depend on the processing

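Of the values of the whole comparison under other settings, 25 stayed near the reported value and 13 moved. TMM factors left 150 genes higher and 127 lower. With ribosomal protein genes left out of the totals the median was -0.17, with 99 genes higher and 203 lower. The cells of MG.1 alone gave a median of 0.16, and those of MG.2 alone gave -0.20, with 62 genes higher and 106 lower, from fewer cells and so fewer genes compared. A minimum of 100 UMIs left 84 genes higher and 75 lower, and a minimum of 200 UMIs left 41 and 38 with a median of -0.19, because fewer genes were compared. At 1.5-fold 328 genes were higher and 301 lower. Of the 1188 list values, 76 had the opposite sign to the reported value, and 3 of these belonged to values past 1.5-fold. One-carbon metabolism summed to a log2 ratio of -0.067 in MG.2 alone (0.59 in all cells), where it was compared over 1 gene, and with a minimum of 20 UMIs the medians of general stress and of G2/M phase genes were -0.19 and -0.034 (0.65 and 0.70 at 50 UMIs), where more genes entered. Values of smaller size that turned in MG.2 included the medians of pyrimidine synthesis, oxidative phosphorylation, ergosterol synthesis and the proteasome. Of the 1665 values of named genes, 67 had the opposite sign, 7 of them for genes past 2-fold. YHR095W, with a log2 ratio of 1.19, gave -2.11 without MG.3, -1.92 in MG.1 alone, -2.83 in MG.2 alone and -2.20 without cells dominated by a single gene. In MG.2 alone YNL143C gave -1.27, RPN4 -1.02 and ZWF1 -0.44, against 2.08, 1.01 and 1.04 in all cells. The cause of the differences between subclusters was not tested. FPS1 rested on deep cells, since its log2 ratio of -1.75 was -0.47 when the deepest 5% of the cells in each library were left out. No paired analysis was possible because each condition has 1 library. Depth limits genes with few UMIs in MPA, such as IMD2 with 3, where the ratio ran between 3.25 and 3.93 over the settings.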

Other observations

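Genes for the export of drugs and polyamines had a median log2 ratio of 0.77 over 6 genes, with 3 at least 2-fold higher and 0 lower. Among all genes compared, 10.8% were higher and 9.11% lower by 2-fold. PDR5, a multidrug transporter of the plasma membrane, had 254 CPM in MPA + Guanine (MG) and 29.2 CPM in MPA (from 3 UMIs in MPA), beside 70.7 CPM in DMSO and 198 CPM in Guanine, and its log2 ratio was 3.12 (1.51 to 5.43). PDR5 is not among the genes the naming rule takes and was added after its value was seen. TPO1, a polyamine transporter, had 325 CPM in MG and 107 CPM in MPA (log2 ratio 1.60), but 0.56 in the cells of MG.2.

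Glycerol genes stood at both ends. GPP2, a glycerol-phosphatase, had 347 CPM in MPA + Guanine and 77.8 CPM in MPA (log2 ratio 2.16). FPS1, the channel through which glycerol leaves the cell, had 197 CPM in MG from 55 UMIs in 39 cells and 662 CPM in MPA from 68 UMIs in 14 cells (-1.75), beside 112 CPM in DMSO and 69.2 CPM in Guanine. With the deepest 5% of the cells left out, the log2 ratio of FPS1 was -0.47. Of 4 MATa mating genes 2 were at least 2-fold higher and 0 lower, where 10.8% and 9.11% of all genes compared were. Their median was 0.74. AGA2, the adhesion subunit of a-agglutinin, had 193 CPM in MG and 58.4 CPM in MPA (1.73, 0.51 to 3.23). Its MPA level rests on 6 UMIs in 5 cells. FRM2, a nitroreductase-like protein whose gene lies beside that of HBN1 on chromosome III, had 901 CPM in MPA + Guanine, 370 CPM in MPA, 80.3 CPM in DMSO and 420 CPM in Guanine (1.28). CTS1, the chitinase that separates mother from daughter cells, had 211 CPM in MG and 438 CPM in MPA (-1.05), and cell wall mannoproteins had a median of 0.03 over 13 genes, which was -0.19 with ribosomal protein genes left out of the totals.

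Vitamin, lysine and lipid genes add further values. SNZ1, of vitamin B6 synthesis, had 675 CPM in MPA + Guanine, 253 CPM in MPA, 521 CPM in DMSO and 2842 CPM in Guanine (log2 ratio 1.42). Of the 9 genes for vitamin B6 and thiamine in the matrix, 8 were listed at 0 in MPA, as were 2356 of all 4777 genes. Lysine synthesis had a median of 0.45 over 5 genes with none past 2-fold, and LYS20, a homocitrate synthase with a near-identical copy in LYS21, had 472 CPM in MG and 545 CPM in MPA (-0.21). CHO1, the phosphatidylserine synthase, had 375 CPM in MG and 156 CPM in MPA (1.27), while ACC1, the acetyl-CoA carboxylase, had 543 CPM in MG and 603 CPM in MPA (-0.15) and OPI3, a phospholipid methyltransferase, had 2323 CPM in MG and 1780 CPM in MPA (0.38). In ergosterol synthesis 1 of 9 genes was at least 2-fold higher and 0 lower, where 10.8% and 9.11% of all genes compared were. The median was 0.27, and -0.20 in the cells of MG.2. ERG11, the lanosterol demethylase, had 529 CPM in MG and 350 CPM in MPA (0.59).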
